A study of Mus musculus with 18 samples.

Results

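A set of 7 mouse genes for purine handling and signalling at the tip of the intestinal villus (Ada, Nt5e, Slc28a2, Enpp3, Xdh, Klf4 and Egfr) was followed through 18 RNA-seq libraries of the ileum. The genes were taken by name, and all 7 were found among the 47729 gene identifiers counted. Each library held sorted epithelium of the ileum, the final segment of the small intestine. Lactating females sampled at lactation day 7 gave 6 libraries, and virgin females and virgin males of matched age gave 6 each. Every mouse was on a standard chow, RM3 for breeding and RM1 for maintenance and experiment. No group carried a labelled genetic change, and strain, age in weeks and sorting gate are not given in the sources used here. Since no label says that each library is a separate animal, p-values measure only the spread among the libraries, which may be technical. RNA was measured in bulk, where fewer cells of a type and less RNA per cell cannot be told apart.

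Epithelial cells of the small intestine are born in the crypts, climb the villus and are shed at its tip, and the genes they use change along the way. Enterocytes near the tip carry enzymes that take purine nucleotides apart. Enpp3, a nucleotide pyrophosphatase, and Nt5e, the ecto-5'-nucleotidase CD73, work at the cell surface and turn nucleotides into adenosine. Slc28a2 brings purine nucleosides into the cell with sodium, Ada deaminates adenosine to inosine, and Xdh oxidises the resulting bases to uric acid. Klf4 is a transcription factor of differentiated, non-dividing epithelium, and Egfr is the receptor for epidermal growth factor. None of the 7 encodes an adhesion protein, so junction and adhesion genes are described below from a list of their own.

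Library totals ran from 34577104 to 49039300 counts. The epithelial markers Epcam and Vil1 stood at 1500.0 to 3170.0 and 1830.0 to 4980.0 CPM (counts relative to library size, corrected for composition) in the 18 libraries. Most markers of other cells were low: the pan-leukocyte gene Ptprc reached at most 0.373 CPM, the T cell gene Cd3e 0.26, the fibroblast gene Pdgfra 0.24 and the endothelial gene Pecam1 0.491. Of 17 immune markers 15 had a mean under 1 CPM, and of 15 stromal and endothelial markers 13, with Lum at 0 everywhere. Some stood higher: Pdgfrb and Lyve1 of the stromal and endothelial list reached 13.3 and 6.90 CPM, and Lyz2 of the immune list ran from 3.97 to 43.7 CPM. Xist, the RNA of the inactive X chromosome, stood at 115 CPM or more in every female library and at 5.85 CPM or less in the males, and the Y-linked Ddx3y at 25.4 to 30.7 CPM in males and at most 0.0742 CPM in females. Virgin female 2 and virgin male 6 stood apart, with 31050 and 29980 CPM of Gm42418, a transcript that overlaps ribosomal RNA, where the rest had 1230 to 4477 CPM.

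The bases upstream of 3 of the genes are shown because Ada and Slc28a2 tracked each other most closely of all pairs, as described below, and because Klf4 encodes a factor that binds CACCC and GC-rich elements. Each run is the 250 bases before the RefSeq start (assembly GRCm38.p6), 5' to 3' on the gene's strand, in lower case. Capitals mark matches on either strand to CCNCNCCC, a KLF-type element, or to TTTATNG, a CDX-type element. The Ada run is chr2:163750240-163750489 on the minus strand, the Slc28a2 run is chr2:122426185-122426434 on the plus strand, and the Klf4 run is chr4:55532476-55532725 on the minus strand.
Ada: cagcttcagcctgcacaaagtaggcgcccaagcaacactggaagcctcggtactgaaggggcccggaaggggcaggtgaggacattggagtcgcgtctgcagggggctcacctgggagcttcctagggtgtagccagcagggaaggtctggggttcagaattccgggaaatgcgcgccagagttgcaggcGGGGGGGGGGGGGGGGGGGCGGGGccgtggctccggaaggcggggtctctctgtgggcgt
Slc28a2: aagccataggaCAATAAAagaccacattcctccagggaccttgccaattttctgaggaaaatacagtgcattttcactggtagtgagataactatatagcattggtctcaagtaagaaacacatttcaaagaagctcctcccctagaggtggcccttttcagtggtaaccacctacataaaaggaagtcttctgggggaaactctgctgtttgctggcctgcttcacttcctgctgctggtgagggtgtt
Klf4: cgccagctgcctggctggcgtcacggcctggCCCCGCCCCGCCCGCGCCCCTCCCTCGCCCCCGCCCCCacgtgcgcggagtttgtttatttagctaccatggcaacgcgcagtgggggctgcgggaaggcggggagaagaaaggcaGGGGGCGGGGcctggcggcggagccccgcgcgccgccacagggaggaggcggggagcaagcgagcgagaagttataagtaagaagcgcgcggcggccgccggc

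The Ada run is GC-rich (67.2% G or C) and its 14 KLF-type matches overlap one another within a single G-rich stretch. The Slc28a2 run has 45.2% G or C, no KLF-type match and 1 CDX-type match. The Klf4 run has 74.0% G or C and 9 KLF-type matches in 2 blocks. A KLF-type match occurred in 45.9% of 32851 RefSeq upstream windows of the same length, and a CDX-type match in 9.81%. In the windows of the other members present in the table, Nt5e (72.0% G or C) had 2 KLF-type matches, and Enpp3 (36.8%) and Egfr (60.8%) had none. The AP-1-type letters TGANTCA (6.75% of all windows) and the HNF4-type letters CAAAGTCCA (0.384%) were found in none of these 6 windows. Ada and Slc28a2 thus differed in base composition and in the matches found upstream. A match is a string of letters, and its absence says only that these letters are not in the window.

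Nt5e and Enpp3, the enzymes at the cell surface, spanned wide ranges within each group. Nt5e (chromosome 9, 88327197 to 88372092 of GRCm38) had a lowest, median and highest value of 13.7, 132 and 357 CPM in lactating females. In virgin females these were 20.4, 59.3 and 150 CPM, and in virgin males 10.4, 60.2 and 149 CPM. Lactating females 1 and 5 were the highest libraries, virgin male 6 and lactating female 3 the lowest, and the groups overlapped. Enpp3 (chromosome 10, 24772406 to 24842823) had 42.9, 155 and 548 CPM in lactating females. It had 36.2, 54.5 and 118 CPM in virgin females and 15.6, 44.9 and 63.5 CPM in virgin males. In 4 of 6 lactating libraries Enpp3 lay above every virgin library of either sex, while lactating females 2 and 3 lay among them.

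Slc28a2 and Ada, the nucleoside importer and the deaminase, had the same libraries at both ends. Slc28a2 (chromosome 2, 122426477 to 122461137) had a lowest, median and highest value of 85.3, 438 and 927 CPM in lactating females. In virgin females it had 50, 186 and 209 CPM, and in virgin males 22.8, 154 and 398 CPM. Ada (chromosome 2, 163726584 to 163750239) had 145, 906 and 2422 CPM in lactating females. It had 151, 479.8 and 662 CPM in virgin females and 43.6, 402 and 1292 CPM in virgin males. For both genes lactating females 5 and 1 were the highest libraries and virgin male 6 the lowest. Lactating females 4 and 6 also lay above all virgin females, lactating females 2 and 3 lay within the range of the virgin libraries, and virgin male 5 was the highest male. From the lowest to the highest of the 18 libraries Ada spanned 55.5-fold, from 1687 to 82689 counts, and without virgin male 6 it spanned 16.7-fold.

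Xdh, Klf4 and Egfr varied less. Xdh (chromosome 17, 73883895 to 73950196) had a lowest, median and highest value of 301, 628 and 709.9 CPM in lactating females. In virgin females it had 334, 672 and 914 CPM, and in virgin males 254, 458 and 553 CPM. Its highest library was virgin female 1, and all 6 males lay below the virgin female median. Klf4 (chromosome 4, 55527143 to 55532466) had 237, 509 and 770.2 CPM in lactating females. In virgin females it had 269, 471 and 560.1 CPM, and in virgin males 255, 299 and 470.3 CPM. Lactating female 1 was highest and lactating female 2 lowest, and all 6 males again lay below the virgin female median. Egfr (chromosome 11, 16752203 to 16918158) was low and even, with 18.9, 23.0 and 26.4 CPM in lactating females. It had 20.3, 23.4 and 32.0 CPM in virgin females and 21.4, 23.8 and 29.9 CPM in virgin males.

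**Figure D1:**
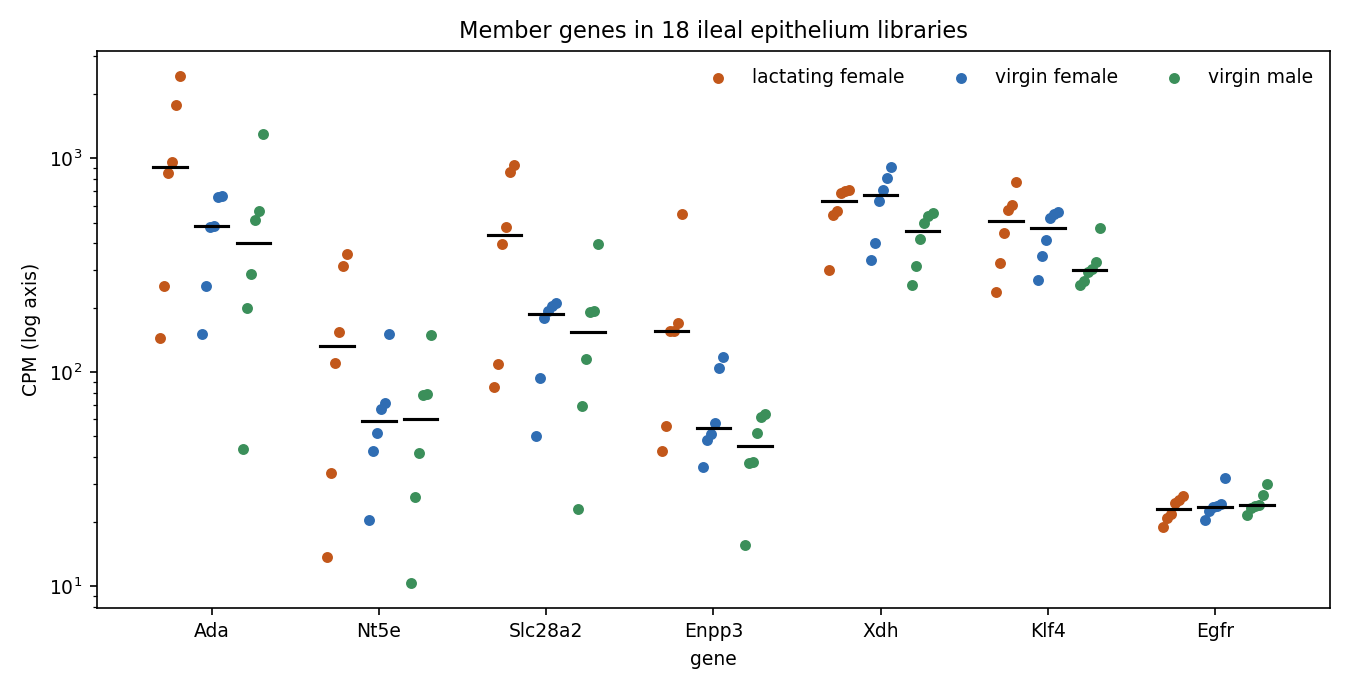
Level of each of the 7 genes in CPM (log axis) in the 18 libraries, one point per library, coloured by group, with the group median as a bar. Ada, Nt5e, Slc28a2 and Enpp3 spread widely within every group, whereas Egfr stays between 18.9 and 32.0 CPM.

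Per kilobase of annotated exon, the median levels over the 18 libraries were ordered Ada (250 CPM per kb), Klf4 (125), Xdh (59.8), Slc28a2 (45.7), Enpp3 (9.42), Nt5e (8.05) and Egfr (2.09). Klf4 was above Xdh in 18 of 18 libraries and Slc28a2 above Enpp3 in 18 of 18. The other neighbours changed places in some libraries. Ada was above Klf4 in 15 of 18 libraries, Xdh above Slc28a2 in 12, Enpp3 above Nt5e in 14 and Nt5e above Egfr in 16. The importer and the deaminase thus stood several-fold above the surface enzymes per kilobase. The value for Slc28a2 is uncertain because Gm14085, a predicted gene on the same chromosome (122484941 to 122528040), matches it at 96.3% of 3735 aligned transcript bases. Gm14085, chosen after its values were seen, was counted at 0.201 to 0.316 of the Slc28a2 level in each library, and the deposited counts do not show how reads that match both were assigned.

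Lactating females were compared with virgin females to ask how the genes differ with lactation within one sex. No member was called (adjusted p under 0.05 in edgeR's quasi-likelihood test, Benjamini-Hochberg adjusted over all 15572 genes tested). Over all genes 9 were called, 0.0578%, so few calls were made anywhere. At an unadjusted p under 0.05 there were 2 of 7 members, against 1003 of 15572 genes. The log2 fold change was 1.62 for Slc28a2 (SE 0.61, adjusted p = 0.64) and 1.44 for Enpp3 (SE 0.50, adjusted p = 0.567), the 2 with an unadjusted p under 0.05. Nt5e was at 1.28 (SE 0.68, adjusted p = 0.814) and Ada at 1.25 (SE 0.67, adjusted p = 0.819). For each of these 4 genes the virgin female mean was exceeded by 4 of 6 lactating libraries. Without lactating female 1, the highest Enpp3 library, the Enpp3 value was 0.74 (adjusted p = 0.721).

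Xdh, Klf4 and Egfr were near 0 in the same comparison, at log2 fold changes of -0.11 (SE 0.26), 0.14 (SE 0.25) and -0.08 (SE 0.11), with adjusted p-values of 0.975, 0.967 and 0.958. At 2 SE either way, the difference lay between -0.63 and 0.40 for Xdh, between -0.35 and 0.64 for Klf4 and between -0.31 and 0.14 for Egfr. For Ada the same interval ran from -0.08 to 2.59 and for Nt5e from -0.07 to 2.64. For Slc28a2 it ran from 0.39 to 2.85 and for Enpp3 from 0.44 to 2.44, both above 0. These intervals are not adjusted for the number of genes tested, and neither gene was called. The intervals of Ada and Nt5e thus reached a difference of several-fold, whereas that of Egfr was narrow. With 1 library left out in turn, the value ran from 0.83 to 1.48 for Ada, 0.89 to 1.69 for Nt5e and 1.32 to 1.84 for Slc28a2.

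Virgin males were compared with virgin females to ask how the genes differ by sex. No member was called, against 13 of 15572 genes (0.0835%), and 1 of 7 had an unadjusted p under 0.05, against 1295 of all genes. Xdh was at a log2 fold change of -0.56 (SE 0.26, adjusted p = 0.565), Klf4 at -0.48 (SE 0.25, adjusted p = 0.565) and Enpp3 at -0.63 (SE 0.49, adjusted p = 0.619). No male library lay above the female mean for Xdh or Enpp3, and 1 did for Klf4. Ada, Slc28a2, Nt5e and Egfr were at 0.11, 0.09, -0.07 and 0.03, with adjusted p-values of 0.955, 0.959, 0.974 and 0.933. Without virgin female 2 and virgin male 6 the Nt5e value was 0.56 and that of Enpp3 -0.30. The cell cycle score, the mean log2 CPM of 35 genes of dividing cells, had a median of 4.86 in males (4.62 to 5.08) and 4.32 in virgin females (3.57 to 5.14). With the score as a covariate the values of all 7 genes moved. Xdh was then at -0.19, Klf4 at -0.07 and Enpp3 at 2.3e-03, nearer to 0. Ada was at 1.0, Slc28a2 at 0.91 and Egfr at 0.09, farther above it, and Nt5e changed sign, from -0.07 to 0.81. None of these was called. The part of the score in these values was not tested beyond that fit.

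Lactating females against virgin males differ in sex and reproductive state together, and the effects of these cannot be told apart. No member was called, against 119 of 15572 genes (0.764%), and 3 of 7 had an unadjusted p under 0.05, against 2476 of all genes. Enpp3 was closest to the threshold, with 188 ± 185 CPM in lactating females and 44.7 ± 18 CPM in males (SD, n = 6 each) and a log2 fold change of 2.07 (SE 0.51, adjusted p = 0.069). Of 6 lactating libraries 5 lay above the male mean and 4 above the highest male. Slc28a2 was at 1.53 (SE 0.61, adjusted p = 0.251), Nt5e at 1.35 (SE 0.68, adjusted p = 0.331) and Ada at 1.14 (SE 0.67, adjusted p = 0.392). Klf4 was at 0.62 (SE 0.25, adjusted p = 0.253), Xdh at 0.45 (SE 0.26, adjusted p = 0.39) and Egfr at -0.11 (SE 0.11, adjusted p = 0.599).

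The Enpp3 call against males depended on the fit. It was called by DESeq2 (2.08, adjusted p = 0.00789), without the filter on low counts (2.06, adjusted p = 0.0454) and without lactating female 2 (2.26, adjusted p = 0.0251) or 3 (2.28, adjusted p = 0.0234). Without lactating female 1 it was 1.37 (adjusted p = 0.227), and with the cell cycle score as a covariate 1.11 (adjusted p = 0.235). Over its 25 alternatives the adjusted p ran from 0.00789 to 0.235. With that covariate the other values against males were also nearer to 0, except that of Egfr (-0.17). Ada was at 0.04, Nt5e at 0.15, Slc28a2 at 0.51, Klf4 at 0.22 and Xdh at 0.20. Against virgin females Ada, Nt5e, Slc28a2 and Enpp3 were at 1.05, 0.96, 1.43 and 1.11 with it.

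**Figure D2:**
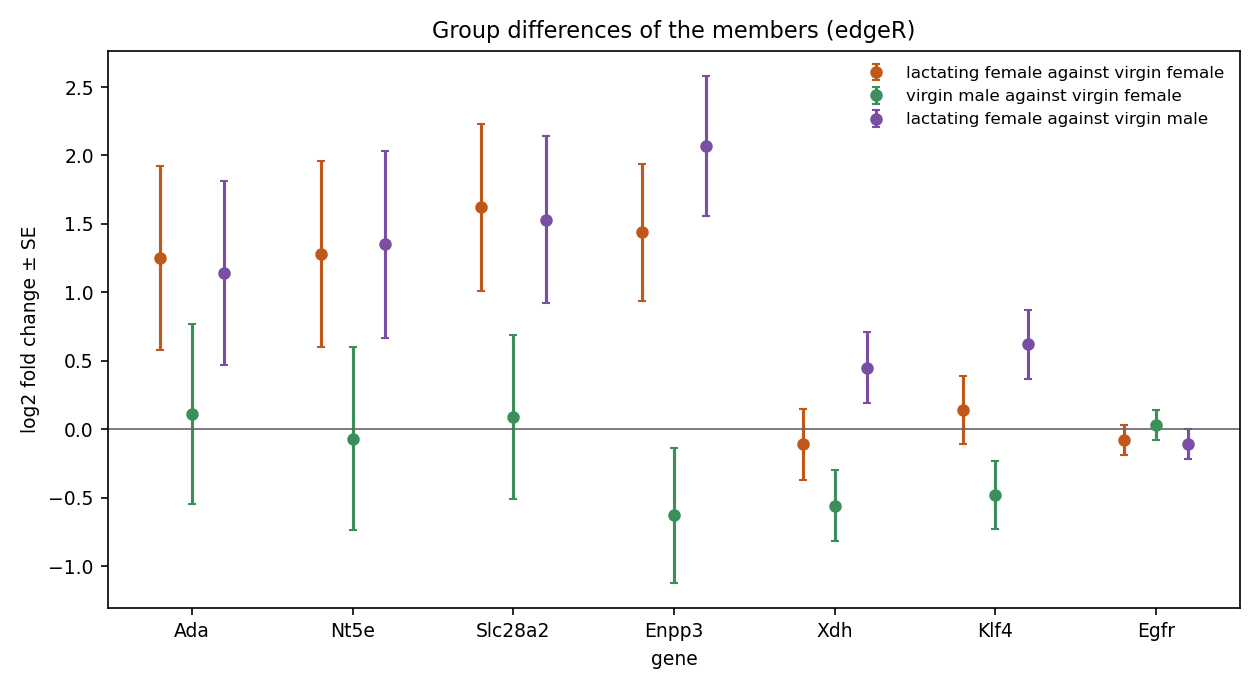
Log2 fold change with its standard error for each gene in the 3 comparisons, from one edgeR fit of all 18 libraries. Ada, Nt5e, Slc28a2 and Enpp3 lie between 1.14 and 2.07 in both comparisons of lactating females, with wide errors, and none of the points was called.

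The same 4 genes were among the most variable genes of the epithelium within groups. The within-group SD of log2 CPM was 1.44 for Nt5e, 1.42 for Ada, 1.28 for Slc28a2 and 0.96 for Enpp3, against 0.32 for the median gene. For Nt5e and Ada 99.5% of the 15572 genes had a smaller SD, for Slc28a2 99.0% and for Enpp3 96.2%. Xdh (0.51, 74.7%) and Klf4 (0.47, 71.4%) were nearer the middle, and Egfr (0.19) varied less than most genes, with 19.9% below it. The high-to-low ratio of Ada was 16.7 among lactating females and 4.38 among virgin females. It was 29.6 among virgin males, of which virgin male 6 was the low library.

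Ada, Nt5e, Slc28a2 and Enpp3, grouped after their values were seen, were high and low in largely the same libraries. Over the 18 libraries Ada and Slc28a2 had Pearson's r = 0.98 and Spearman's rho = 0.963 of log2 CPM (permutation p = 1e-05 for both, the smallest that 100000 permutations give, and adjusted p = 4.2e-05 and 3.5e-05 over 21 pairs). Without the 2 libraries farthest from the median, lactating female 5 and virgin male 6, r was 0.966. The r was 0.994 among lactating, 0.973 among virgin female and 0.997 among virgin male libraries. The ratio of Slc28a2 to Ada moved only between 0.292 and 0.59, 2.02-fold, while Ada itself moved 55.5-fold, or 16.7-fold without virgin male 6. Among 10070 other genes with a mean of at least 5 CPM, Slc28a2 was 2nd in correlation with Ada and Ada was 2nd with Slc28a2, behind Gm14085 (r = 0.991).

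The 6 pairs among these 4 genes had r of 0.826 to 0.98 and rho of 0.86 to 0.963, and all 6 were called (adjusted permutation p at most 0.0001). Without the 2 farthest libraries their r was 0.754 to 0.966. By group it was 0.842 to 0.994 (lactating), 0.701 to 0.973 (virgin female) and 0.951 to 0.997 (virgin male). Ratios between some of them moved more than that of the importer to the deaminase. Enpp3 to Ada ran from 0.0492 in virgin male 5 to 0.386 in lactating female 2, and Nt5e to Ada from 0.0543 in lactating female 3 to 0.31 in virgin female 2. Ada itself was the 3rd highest of 18 libraries in virgin male 5 and the 17th in lactating female 2.

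**Figure D3:**
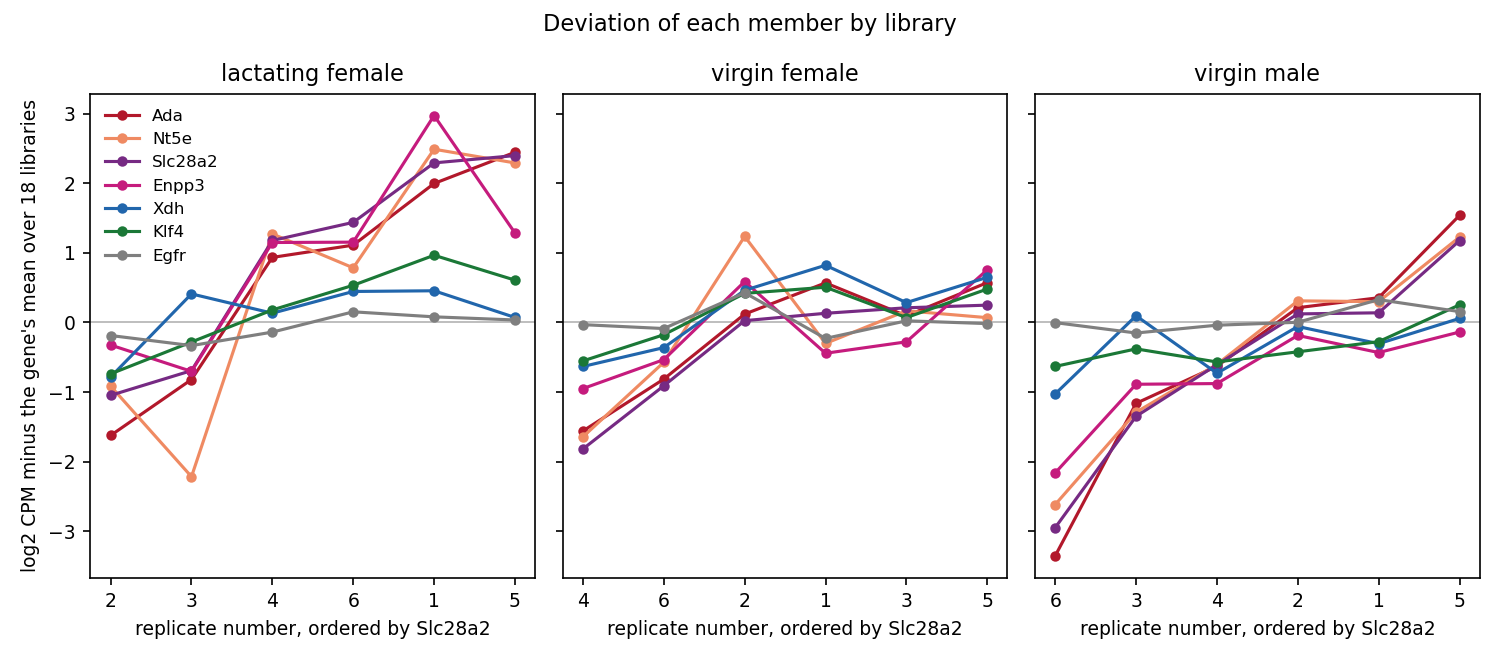
Deviation of each gene's log2 CPM from its mean over 18 libraries, with the libraries of each group placed in order of Slc28a2 and labelled by replicate number. Ada, Nt5e, Slc28a2 and Enpp3 move together from low to high libraries in each group, Xdh and Klf4 move less, and Egfr is nearly flat.

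Klf4 varied with these 4 genes although over a smaller range. Its r was 0.835 with Ada (rho = 0.868), 0.826 with Slc28a2 (rho = 0.837), 0.826 with Enpp3 (rho = 0.785) and 0.786 with Nt5e (rho = 0.759), with adjusted permutation p-values for r of 9e-05, 0.00013, 7e-05 and 0.00025. Without the 2 farthest libraries these were 0.845, 0.81, 0.758 and 0.696. Klf4 and Xdh had r = 0.803 (rho = 0.792, adjusted permutation p = 0.00012, and 0.739 without the 2 farthest).

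Xdh, the last purine enzyme among the members, had lower r with these 4 genes. Its r was 0.665 with Ada (adjusted permutation p = 0.0045), 0.616 with Slc28a2 (adjusted permutation p = 0.01) and 0.584 with Enpp3 (adjusted permutation p = 0.014), with rho of 0.558, 0.55 and 0.546. With Nt5e it was 0.483 (rho = 0.449, adjusted permutation p = 0.056), which was not called. Without lactating female 1 and virgin male 6 the relation of Xdh with Enpp3 was 0.452 (permutation p = 0.08) and no longer passed, with 16 libraries left. With group means subtracted it was 0.56 (adjusted permutation p = 0.025). Within groups Xdh followed Ada at 0.982 in virgin females, 0.57 in lactating females and 0.721 in virgin males. Whether these 3 values differ was not tested. The ratio of Xdh to Ada ran from 0.225 in lactating female 5 to 5.82 in virgin male 6.

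By Pearson's r over the 18 libraries Egfr was called with Nt5e (r = 0.516, rho = 0.628, adjusted permutation p = 0.039, and 0.60 without the 2 farthest), and its r with the other 5 members was 0.048 to 0.321, not called. Other measures gave more calls. By rho Egfr was also called with Ada and with Enpp3 (0.496 and adjusted permutation p = 0.046 for each). With group means subtracted, r was 0.659 with Nt5e (adjusted permutation p = 0.0064), 0.586 with Enpp3 (0.018) and 0.512 with Slc28a2 (0.042). Its r with the other members was 0.337 to 0.818 among lactating libraries and 0.053 to 0.686 among virgin female ones. In all, 15 of 21 pairs were called by r, 17 with group means subtracted and 13 without virgin female 2 and virgin male 6. The share of all gene pairs that would be called was not measured, so these counts cannot be read as particular to the members. In order of r with Ada among 10070 genes, Nt5e was 18th, Klf4 122nd, Enpp3 145th, Xdh 1135th and Egfr 3697th. Ada was 606th in the order for Klf4 and 1931st in that for Xdh.

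**Figure D4:**
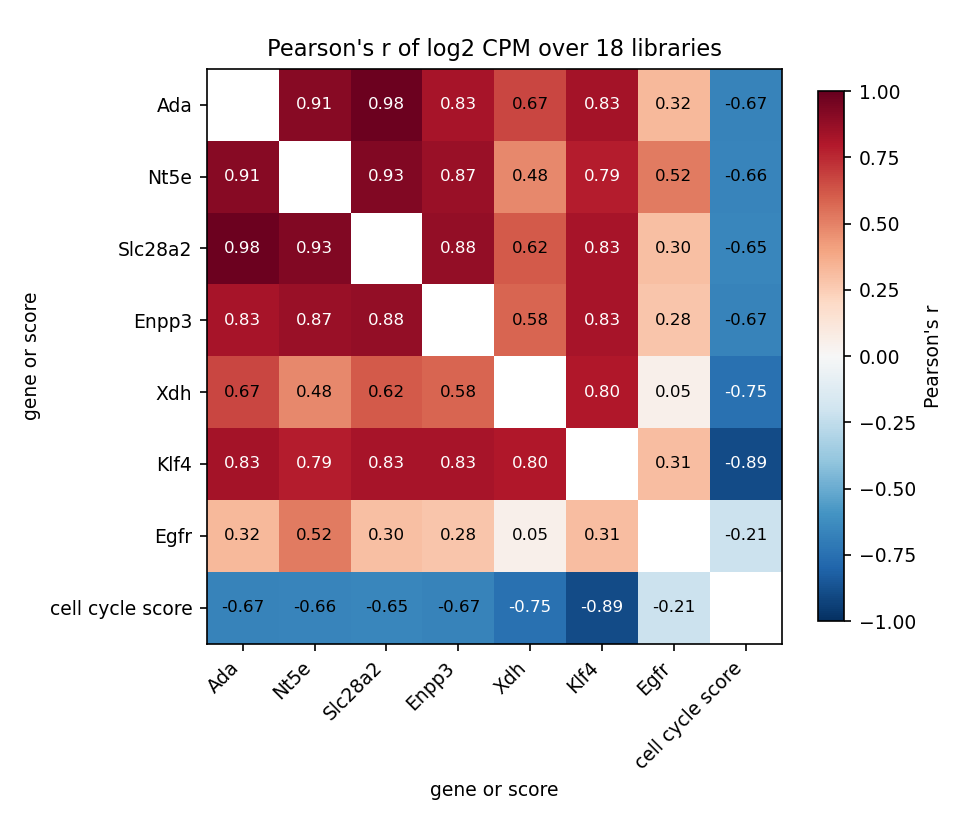
Pearson's r of log2 CPM over 18 libraries between the 7 genes and with the cell cycle score, written in each cell. The block of Ada, Nt5e, Slc28a2 and Enpp3 holds values of 0.83 to 0.98, the row of Egfr has the lowest values, and all values with the score are negative.

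Libraries with more RNA of dividing cells had less of 6 of the 7 genes. The strongest relation with the cell cycle score was that of Klf4 (r = -0.893, rho = -0.874, adjusted permutation p = 7e-05 for both over 7 relations, and -0.885 without the 2 farthest libraries). Xdh had r = -0.747 (rho = -0.765, adjusted permutation p = 0.0014, and -0.705 without the 2 farthest). Ada, Nt5e, Slc28a2 and Enpp3 had r of -0.667, -0.658, -0.651 and -0.67 (rho of -0.732, -0.699, -0.707 and -0.697, adjusted permutation p = 0.0037 for each), and -0.667, -0.726, -0.664 and -0.707 without the 2 farthest. Egfr had r = -0.212 (rho = -0.389, adjusted permutation p = 0.40) and was not called. Without the 2 farthest libraries its r was -0.479 (permutation p = 0.061), and by group it was -0.711 (lactating), -0.047 (virgin female) and -0.124 (virgin male). Virgin male 6 had the lowest Ada, Nt5e, Slc28a2, Enpp3 and Xdh of all 18 libraries at a score of 4.83, near the male median.

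Within groups the r with the score was as follows. For Ada it was -0.907 among lactating, -0.899 among virgin female and -0.369 among virgin male libraries, and for Slc28a2 it was -0.918, -0.833 and -0.375. For Klf4 it was -0.947, -0.921 and -0.605, and for Enpp3 -0.939, -0.49 and -0.359. For Nt5e it was -0.873, -0.636 and -0.413. Xdh had -0.561, -0.953 and -0.523, strongest among virgin females. The score spanned 3.52 to 5.21 in lactating females and only 4.62 to 5.08 in males, and the difference between groups was not tested. With group means subtracted from both measures, the same number of members, 6 of 7, was called. The share of all genes that would be called against the score was not measured, so this count cannot be read as particular to the members.

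**Figure D5:**
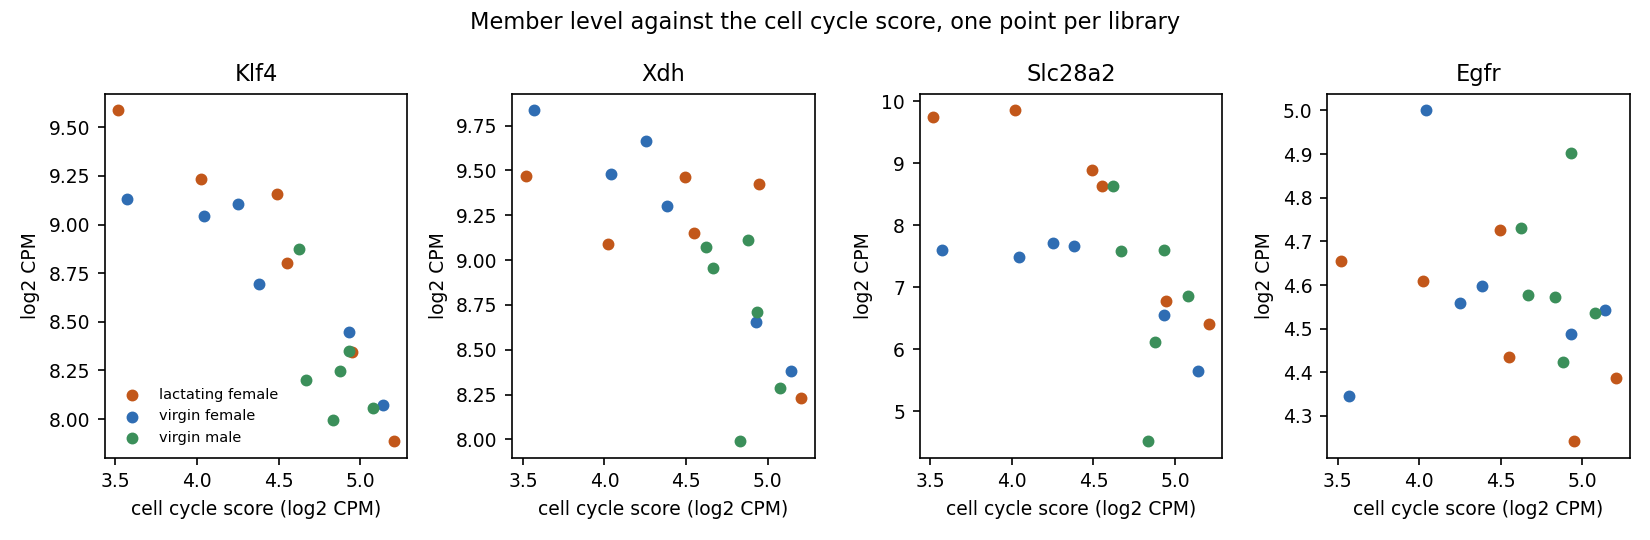
Log2 CPM of Klf4, Xdh, Slc28a2 and Egfr against the cell cycle score (mean log2 CPM of 35 genes), one point per library, coloured by group. Klf4 falls steadily as the score rises, Slc28a2 falls with wide scatter and virgin male 6 far below the rest, and Egfr shows no clear trend over all libraries together.

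The genes whose pattern over the 18 libraries was most like a member, by Pearson's r of log2 CPM, are given as a description, leaving out predicted genes and RIKEN clones, among them Gm14085, the closest to Slc28a2. Next to each other, Ada and Slc28a2 had Slc23a4 (0.972 and 0.978), which encodes a nucleobase transporter in rodents, and Apol9a (0.949 and 0.966). For Nt5e they were the BMP-family ligands Bmp8a (0.955) and Bmp8b (0.932) and the lipoprotein gene Apoa4 (0.94), itself known from the villus tip. For Enpp3 they were Clca4a (0.934), Hmces (0.931) and Tmem43 (0.931). Xdh was closest to Smpdl3b (0.972), Stat3 (0.968) and Snx9 (0.967), and Klf4 to Litaf (0.969), Mir22hg (0.967) and Ccdc68 (0.963). Egfr had no such close partner, the first being Neurl1b (0.786), followed by Utp14b (0.726). None of these genes was called in any of the 3 comparisons.

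Other genes of the upper villus were not called either. Of 17 listed genes outside the 7, none was called in any comparison. Against virgin females 11 were higher and 6 lower in lactating females (median log2 fold change 0.10, against -0.003 for all genes), and in virgin males 1 was higher and 16 lower (median -0.27, against -0.013). In lactating females against males 15 were higher and 2 lower (median 0.38, against -0.008). Apoa4 had means of 5940, 3360 and 2148 CPM in lactating females, virgin females and virgin males (0.82 for lactating against virgin females, SE 0.54, adjusted p = 0.895). Its r with Slc28a2 was 0.891. Lgals3, a galectin, was at 0.61 (SE 0.27, adjusted p = 0.732) and Creb3l3, a transcription factor of lipid metabolism, at -0.15 (SE 0.37, adjusted p = 0.98). Pmp22 was at 1.44 (SE 0.40, adjusted p = 0.11) for lactating females against males.

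A list of 19 genes held other nucleotide- and phosphate-splitting enzymes of the Entpd, Enpp and alkaline phosphatase families together with the peptidase gene Dpp4. Of these 15, Dpp4 included, were tested and none was called in any comparison. In lactating against virgin females 4 were higher and 11 lower (median -0.07), and in lactating females against males 10 were higher and 5 lower (median 0.19). Entpd8, an ectonucleotidase of the apical membrane, was at 0.39 (SE 0.24, adjusted p = 0.87) and had r = 0.893 with Slc28a2. Alpi, intestinal alkaline phosphatase, was at -0.02 (SE 0.29, adjusted p = 0.999) and Entpd5 at 0.17 (SE 0.15, adjusted p = 0.929). Dpp4, a brush border peptidase, was at -0.14 (SE 0.22, adjusted p = 0.967), and in males against females at -0.69 (SE 0.22, adjusted p = 0.565).

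Inside the cell, 22 of 28 listed enzymes of purine salvage and breakdown were tested and none was called in any comparison. In lactating against virgin females they divided into 11 higher and 11 lower. Gda, which deaminates guanine to xanthine, the substrate of Xdh, had means of 658, 655 and 355 CPM in lactating females, virgin females and virgin males. Its log2 fold change in males against females was -0.88 (SE 0.32, adjusted p = 0.565), and in lactating against virgin females 0.01 (SE 0.32). Uox, urate oxidase, was at or below 0.321 CPM on average in each group. The purine phosphorylase gene Pnp was not analysed here.

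Of 20 listed nucleoside and urate transporters and purine receptors, 18 were tested and none was called. Slc28a1, the sister of Slc28a2 that prefers pyrimidine nucleosides, had means of 30.2, 60.2 and 46.1 CPM in lactating females, virgin females and virgin males. Its log2 fold change in lactating against virgin females was -0.99 (SE 0.53, adjusted p = 0.819), where that of Slc28a2 was 1.62, and its r with Slc28a2 was 0.033. The equilibrative carrier Slc29a1 was at -0.01 (SE 0.28) and the urate carrier Slc2a9 at -0.45 (SE 0.15, adjusted p = 0.512). The adenosine receptor genes were low: Adora2b had means of 3.75, 4.66 and 2.24 CPM and Adora1 of 0.486, 0.848 and 1.32 CPM in the same order. Adora1 was at -1.43 in lactating females against males (SE 0.40, adjusted p = 0.119).

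Among 19 tested genes of the EGF receptor family, its ligands and its inhibitors, 1 was called. Dusp6, a phosphatase that damps ERK signalling, was higher in lactating females than in males, with means of 126 and 47.3 CPM (log2 fold change 1.41, SE 0.25, adjusted p = 0.00663), and had 98.3 CPM in virgin females. Against virgin females it was at -1.05 in males (SE 0.25, adjusted p = 0.28) and at 0.35 in lactating females (SE 0.24, adjusted p = 0.904). Erbb2, the partner receptor of Egfr, stood at 226, 227 and 207 CPM on average and was at 0.00 and -0.13 against virgin females in lactating females and males. Lrig3 was at -0.22 (SE 0.10, adjusted p = 0.732) in lactating against virgin females. Of 14 tested Klf and cell cycle inhibitor genes none was called. Klf5, which is known from dividing crypt cells, was at -0.22 (SE 0.11, adjusted p = 0.804) and Klf6 at 0.22 (SE 0.18, adjusted p = 0.918), and their r with Slc28a2 was -0.618 and 0.883.

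Of 30 tested adhesion and junction genes none was called in any comparison. In lactating against virgin females 24 were higher and 6 lower, with a median of 0.06, and in males against females 6 were higher and 24 lower, with a median of -0.14. Cdh1, E-cadherin, stood at 813, 842 and 834 CPM on average in lactating females, virgin females and virgin males (log2 fold change -0.05, SE 0.08, for the female groups), and its r with Slc28a2 was 0.0805. Ceacam18 had means of 89.0, 53.5 and 31.2 CPM and was at 1.51 in lactating females against males (SE 0.40, adjusted p = 0.0968), with r = 0.879 with Slc28a2. The integrin gene Itga1 was at -0.83 in the same comparison (SE 0.21, adjusted p = 0.0733). Ceacam1, an adhesion molecule of the apical surface, was at 0.77 (SE 0.23, adjusted p = 0.137).

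Genes of dividing and of lower villus cells were compared in the same fit. Stem cell markers were lower in 15 of 16 genes in lactating against virgin females (median -0.20) and in 15 of 16 against males (median -0.53), with none called, and Rnf43 was at -0.38 against virgin females (SE 0.15, adjusted p = 0.648). All 35 cell cycle genes were higher in males than in virgin females (median 0.35) and lower in lactating females than in males (median -0.28), and 27 were higher in lactating than in virgin females (median 0.10), with none called. The 17 genes of the lower and middle villus were lower in males than in virgin females in 16 of 17 (median -0.53) and higher in lactating females than in males in 16 of 17 (median 0.77). One of them, the cytokine gene Il18, was called higher in lactating females than in males (1.32, SE 0.23, adjusted p = 0.0063). Il18 and Dusp6 passed the threshold in all 25 alternative fits of that comparison.

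Markers of enteroendocrine, immune and Paneth cells were counted in the same way. All 10 enteroendocrine markers were higher in lactating females, both against virgin females (median 0.61) and against males (median 0.57), and their summed level was 270 to 573 CPM in lactating females, 264 to 354 CPM in virgin females and 205 to 427 CPM in males. One of them, the proglucagon gene Gcg, was called against males (0.90, SE 0.20, adjusted p = 0.046). Gcg passed the threshold in only 9 of 25 alternative fits, with adjusted p between 0.00252 and 0.114 over them and 0.114 without lactating female replicate 6. Of 17 immune markers 9 were tested, of which 6 were higher against virgin females (median 0.73) and 8 against males (median 0.67), with none called. The summed level of the 17 was 16.0 to 26.0 CPM in lactating females, 9.37 to 44.2 CPM in virgin females and 11.6 to 46.9 CPM in males, and Lyz2 alone ran from 3.97 to 43.7 CPM. Of 7 Paneth markers 6 were lower against virgin females (median -0.37) and 5 against males (median -0.43), with none called. Goblet markers had medians of 0.01 and 0.03 in the same comparisons, and no goblet or tuft marker was called. The part of cell composition in the values of the 7 genes was not tested beyond the score as a covariate.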

How the data were processed

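Polyadenylated RNA of sorted ileal epithelium was sequenced in 18 libraries from a directional kit, per the labels' protocols. The authors deposited 1 table per library with a raw count of reads per Ensembl gene. The submitters' processing notes name GRCm38, HISAT2 2.0.4, featureCounts (Subread 2.0.0), FastQC 0.11.5 and DESeq2 1.24.0. How strand and multiply matching reads were handled is not given in the sources used here.

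Of 47729 identifiers 47310 were named from GENCODE M21. Every pair of libraries differed beyond sampling noise (lowest chi-square per degree of freedom 32.7 over 153 pairs). Filtering with filterByExpr of edgeR 4.0.16 (R 4.3.3) left 15572 genes. Counts were scaled with TMM factors and fitted in a single quasi-likelihood model of the 3 group means. Benjamini-Hochberg adjustment ran over all genes, and genes were called at an adjusted p under 0.05. The SE was approximated from the log2 fold change and the square root of F. The fit was also run on simulated counts drawn independently for each gene, with an outcome not reported here. Such counts lack variation shared among genes of a library, so that run does not bear on it. Correlations used log2 CPM with a prior count of 2 and 100000 two-sided permutations. Intervals on counts would cover counting error only: the smallest member count was 401.

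The alternatives were DESeq2 1.42.0, RLE size factors, no filter, the compared groups alone, a replicate block, a cell cycle covariate, and libraries left out. Named genes were the 7 members, up to 3 genes of each of 17 lists by smallest p, and fixed pathway genes (Slc28a1, Slc29a1, Adora2b, Dpp4, Alpi, Klf5, Erbb2, Cdh1, Apoa4, Creb3l3). Pnp was also on the fixed list but was not analysed. To these were added the 3 genes most like each member among those with a mean of at least 5 CPM, predicted genes and RIKEN clones left out. For Egfr, 1 of these 3 is not reported here. Members and lists were chosen with earlier results of these data known. Upstream windows came from RefSeq, which held 6 of 7 members.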

Additional observations from a re-analysis of the deposited data

Results flagged for a closer look

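Across the 21 groups of 6 libraries (7 genes in 3 groups), 3 held a library whose gap to its nearest neighbour exceeded Dixon's 95% limit. The limit was applied to CPM, not to the log2 CPM used for the correlations, and other libraries may be flagged on the log2 scale. Its chance rate of about 1 group in 20 holds for normally distributed values, which was not tested here. The number of flags thus cannot be read as more than chance would give. Enpp3 stood at 548 CPM in lactating female 1, where the next lactating library had 170.3 CPM, so the gap was 0.748 of the group's range. Klf4 stood at 470 CPM in virgin male 5, against 326 CPM in the next male, with a gap of 0.669 of the range. Egfr stood at 32.0 CPM in virgin female 2, against 24.2 CPM in the next virgin female, with a gap of 0.667 of the range. Lactating female 1 also had the lowest cell cycle score of the 18 libraries (3.52), and virgin female 2 had the highest Gm42418. The part of either in these values was not tested.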

How the results depend on the processing

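Of 525 alternative log2 fold changes of the members, 498 kept their direction and side of the threshold. Another 4 gained a call, and 23 changed sign, all 23 without a call. No member was called in the main fit, so no call could be lost, and this tally cannot show how well a call holds. Dusp6, Il18 and Gcg, called in lactating females against males, are outside the tally. Dusp6 and Il18 passed the threshold in 25 of 25 alternative fits and Gcg in 9 of 25. Against the main counts of 9, 13 and 119 genes called (lactating against virgin female, male against virgin female, lactating against male), DESeq2 called 57, 44 and 415. Without the filter 20 were called for males, and the covariate gave 62 for the female groups. For the female groups 1 gene was called with the 2 groups alone, 1 with the replicate block and 1 without virgin female 2 and virgin male 6, which left 61 against males. Leaving out 1 library gave 2 to 16, 10 to 18 and 62 to 311 genes. Members called against males went from 0 to 1 (Enpp3) with DESeq2 and with no filter, and were 0 to 1 over libraries left out. Causes were not tested. Signs that changed in males against virgin females were -0.22 for Ada and -0.18 for Slc28a2 with the replicate block, 0.56 for Nt5e without virgin female 2 and virgin male 6, and 0.81 for Nt5e and 2.3e-03 for Enpp3 with the covariate. In lactating against virgin females they were 0.01 for Egfr without those 2 libraries and 3.0e-03 for Xdh with the covariate. With 1 library left out, lactating against virgin female values ran from -0.03 to 0.29 for Klf4, -0.25 to 0.02 for Xdh and -0.13 to 0.01 for Egfr. Males against virgin females ran from -0.47 to 0.36 for Ada, -0.51 to 0.34 for Nt5e, -0.38 to 0.32 for Slc28a2 and -0.03 to 0.12 for Egfr. The labels do not say that replicate numbers pair the samples. Same-numbered deviations correlated between -0.219 and 0.477, over 0.1 in 2, 3 and 2 of 6 pairs. In the same order, 0, 2 and 2 of 6 samples correlated best with their own number. With 6 pairs per comparison these values cannot settle whether the numbers stand for a shared factor. The replicate block changed no call of a member. Depth did not limit the members, whose lowest count was 401.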
